A study of Mus musculus with 12 samples.

Results

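Serpins of clade B and the Serpinb9 cluster were described across 3T3-L1 adipocytes in which Dnmt3a, a de novo DNA methyltransferase, had been raised or lowered. The description covers 10 genes, Serpinb9, Serpinb9b, Serpinb9c, Serpinb9e, Serpinb9f, Serpinb9g, Serpinb6a, Serpinb6b, Serpinb8 and Serpinb5, taken by symbol from the 26341 gene symbols of the deposited count table. They were chosen by their known values in the knock-down, so everything below on these 10 genes in shDnmt3a against shScr is a description and carries no test. The table holds 26 clade B symbols in all, and the other 16 are given only as a setting for the 10.

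3T3-L1 is a mouse preadipocyte line that becomes fat cells on induction with dexamethasone (1 µM), IBMX (0.5 mM) and insulin (5 µg/ml). All 4 groups were mature adipocytes transduced with lentivirus on day 8, for 2 days according to the sample labels, and harvested after 4 days. Dnmt3a cells received Dnmt3a in the pCDH vector and GFP cells received GFP in the same vector. shDnmt3a cells received a hairpin against Dnmt3a and shScr cells a scrambled hairpin, with 3 libraries in each of the 4 groups. The sources used here do not say which Dnmt3a hairpin was in these libraries, and the count of Dnmt3a does not separate the transgene from the endogenous gene. The libraries are called biological triplicates, and whether each had its own culture is not stated, so a p-value speaks for the spread among these libraries alone.

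Clade B serpins, most of them protease inhibitors, lack a classical secretion signal and act mostly inside the cell. Each inhibitor presents a reactive loop as bait, and the protease that cuts it is trapped in a covalent complex. Serpinb9, the best known member, blocks granzyme B and protects killer lymphocytes and other cells from this protease of their own granules. In the mouse, the ancestral gene has multiplied on chromosome 13 into a row of close copies, Serpinb9b to Serpinb9g, beside similar copies of Serpinb6 and Serpinb1. Serpinb8 and Serpinb5 lie in another clade B cluster, on chromosome 1.

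Total counts ranged from 29084732 to 40762934 in Dnmt3a libraries, 34796944 to 47341091 in GFP libraries, 35013931 to 40973267 in shDnmt3a libraries and 30406492 to 37403514 in shScr libraries. Dnmt3a itself stood at 2734, 2789 and 2742 CPM (counts scaled to a common library total) in Dnmt3a libraries, against 92.8, 90.2 and 96.7 CPM in GFP libraries. It stood at 40.8, 39.3 and 39.4 CPM in shDnmt3a libraries, against 81.3, 86.5 and 78.7 CPM in shScr libraries. Every library thus matched its label for the targeted gene. Adipocyte markers summed to between 8988 and 13478 CPM in every library.

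The sequences show how close the copies are, which bears on every count below. The promoter windows reach from 250 bases before the annotated start to 50 after it, and come from RefSeq on GRCm38.p6, a later build than the one used for counting. The first pair shows the window of Serpinb9f, the gene with the largest difference on knock-down, and that of Serpinb9, the gene with the highest level. Capitals mark CG dinucleotides, the bases that Dnmt3a can methylate.
Serpinb9f, chr13:33323827-33324126, plus strand: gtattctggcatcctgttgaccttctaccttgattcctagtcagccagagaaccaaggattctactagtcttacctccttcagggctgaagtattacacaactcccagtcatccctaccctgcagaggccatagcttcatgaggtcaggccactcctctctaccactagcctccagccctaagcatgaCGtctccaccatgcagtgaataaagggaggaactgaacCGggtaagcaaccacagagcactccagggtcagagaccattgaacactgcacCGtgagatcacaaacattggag
Serpinb9, chr13:33004291-33004590, plus strand: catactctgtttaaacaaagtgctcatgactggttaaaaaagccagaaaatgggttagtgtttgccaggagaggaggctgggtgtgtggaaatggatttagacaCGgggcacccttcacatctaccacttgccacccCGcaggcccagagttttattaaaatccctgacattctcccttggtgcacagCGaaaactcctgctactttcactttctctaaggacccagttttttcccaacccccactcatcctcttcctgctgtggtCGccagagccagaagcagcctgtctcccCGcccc

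The Serpinb9f window held 3 CG dinucleotides and the Serpinb9 window 5. All 10 genes had a promoter window in the RefSeq table. Serpinb9b and Serpinb9e held 2 CGs each, Serpinb9g 3, Serpinb6b and Serpinb9c 4 each, Serpinb8 5 and Serpinb5 7, and only Serpinb6a, with 25, had a CG-dense window. The median over all 32851 promoter windows was 7 CGs, with quartiles of 3 and 20. Serpinb6a had a second listed window with 5 CGs and Serpinb9c one with 9. No methylation was measured in these libraries, and the windows are a description of letters.

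**Figure D1:**
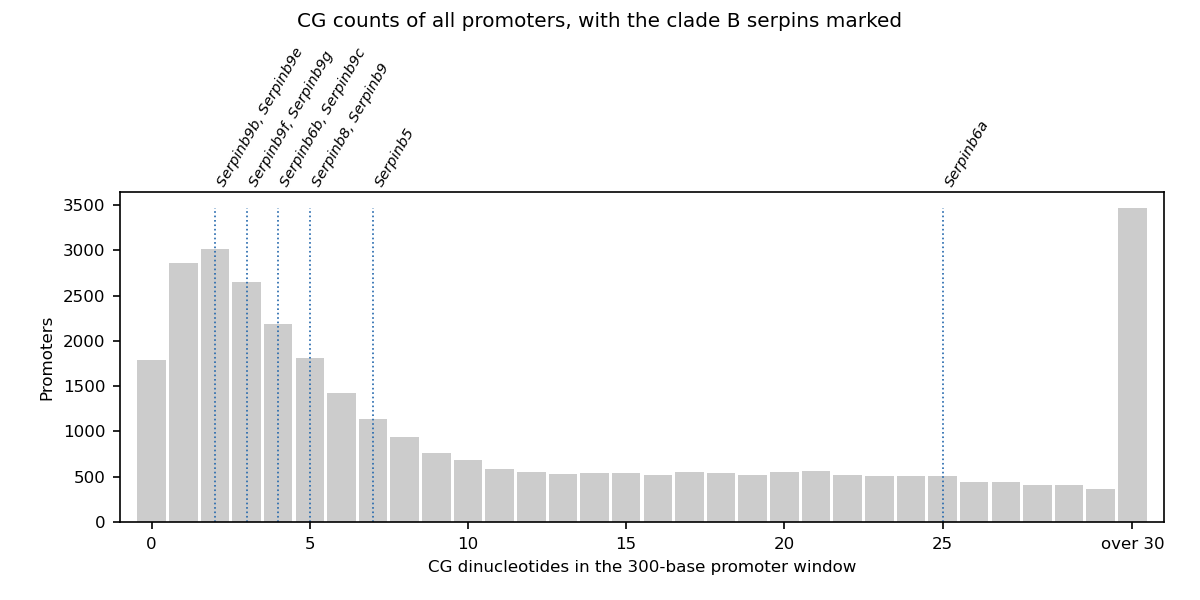
Number of promoter windows (y axis) by their count of CG dinucleotides (x axis, windows with more than 30 pooled), with dotted lines at the first listed window of each of the 10 serpins. Serpinb6a sits at 25 CGs, and the other 9 sit between 2 and 7.

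The tandem copies shared long stretches of promoter. The windows of Serpinb9e and Serpinb9f were identical over 94.3% of their length, those of Serpinb9e and Serpinb9g over 94.7% and those of Serpinb9f and Serpinb9g over 92.3%. Serpinb9c matched Serpinb9d, Serpinb9e, Serpinb9f and Serpinb9g over 63.0% to 66.0% and Serpinb9b over 50.3%, and Serpinb9 matched its neighbour Serpinb9b over 62.0%. The letters TGACGT, searched on both strands, lay in the windows of Serpinb9c, Serpinb9d, Serpinb9e, Serpinb9f and Serpinb9g, 42, 51, 50, 65 and 54 bases before the annotated start, and in 7.51% of all promoter windows. They were chosen after the sequences had been seen, and the stretches of 66 bases around them show what the copies have in common there. Capitals mark TGACGT.
Serpinb9c, chr13:33159761-33159826, minus strand: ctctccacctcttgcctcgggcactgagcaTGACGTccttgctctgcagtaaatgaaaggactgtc
Serpinb9d, chr13:33192874-33192939, plus strand: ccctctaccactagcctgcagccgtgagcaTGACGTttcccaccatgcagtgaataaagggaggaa
Serpinb9e, chr13:33249528-33249593, plus strand: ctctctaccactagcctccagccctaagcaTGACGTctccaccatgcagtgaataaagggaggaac
Serpinb9f, chr13:33323982-33324047, plus strand: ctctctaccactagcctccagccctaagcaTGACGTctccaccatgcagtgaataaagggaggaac
Serpinb9g, chr13:33484706-33484771, plus strand: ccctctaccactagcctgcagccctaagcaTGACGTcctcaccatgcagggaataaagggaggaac

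Serpinb9e and Serpinb9f differed at 0 of these 66 bases and Serpinb9g differed from both at 5, compared without gaps. TGACGT was in no first window of Serpinb9, Serpinb9b, Serpinb6a, Serpinb6b, Serpinb8 or Serpinb5. It was also absent from the window of Serpinb9h (chr13:33395423-33395722), which lies between those of Serpinb9f and Serpinb9g. Serpinb9h is not among the clade B symbols of the counts. TATAAA was in no first window of the 10 genes and in 13.6% of all windows. ACGTG, which would overlap TGACGT in the string TGACGTG, was in the window of Serpinb5 only and in 19.6% of all windows. Serpinb9d carries the same letters as its neighbours and was not called in the knock-down, at 7 to 21 counts in a library. Its log2 fold change was 0.72 (95% interval 0.01 to 1.43, edgeR adjusted p = 0.0926). The fitted values of Serpinb9c, Serpinb9e, Serpinb9f and Serpinb9g were 3.24, 3.87, 5.52 and 5.18, all above that interval. Those copies were chosen by their knock-down values, and Serpinb9d was not. The Serpinb9d window was 87.0% to 91.0% identical to those of Serpinb9e, Serpinb9f and Serpinb9g. Whether the letters bear on any count was not tested.

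The same closeness limits what the counts of single copies mean. The coding sequences of Serpinb9f and Serpinb9g were 98.7% identical, and those of Serpinb9e were 95.0% identical to Serpinb9f and 95.3% to Serpinb9g. Of the 50-base windows along the Serpinb9f transcript, 78.7% also occurred in another gene or elsewhere in the serpin loci. The share was 55.0% for Serpinb9g, 28.3% for Serpinb9e and 22.1% for Serpinb9c. Serpinb9f shared 37.8% of its windows with Serpinb9g and 63.9% with Gm11397, a further copy that is not analysed here. Serpinb9, Serpinb9b, Serpinb6a, Serpinb6b and Serpinb8 shared between 0.203% and 2.56%, and Serpinb5 shared 0 of 2623 windows. The sources used here do not give how reads that fit several places were counted, so reads of Serpinb9e, Serpinb9f and Serpinb9g cannot be assigned to single copies with certainty.

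**Figure D2:**
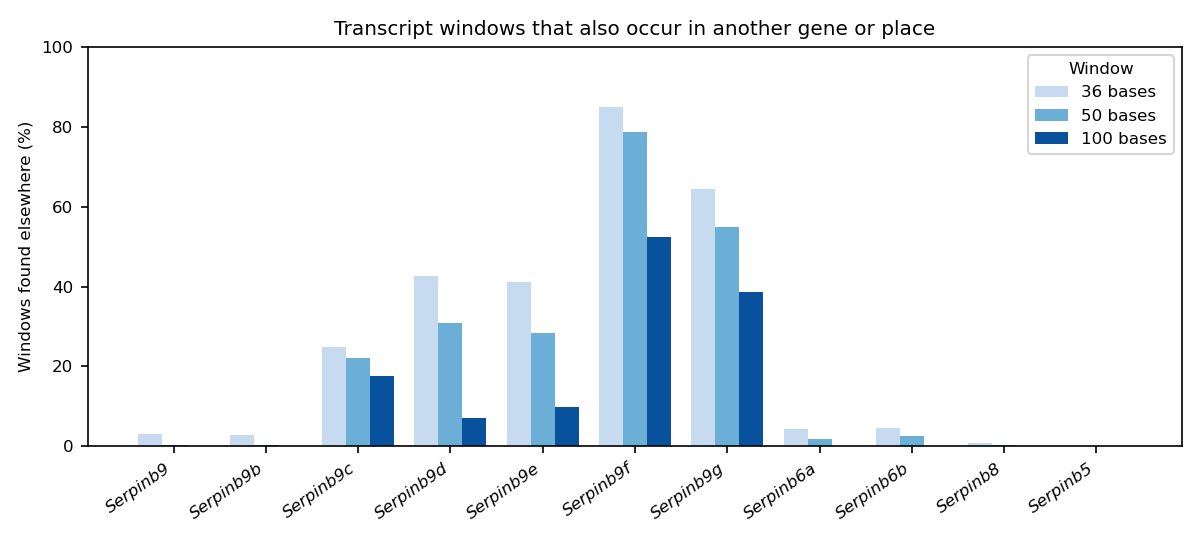
Percent of windows along the longest transcript (y axis, from 0) that also occur in another gene or elsewhere in the 2 serpin loci, for each gene and for windows of 36, 50 and 100 bases. Serpinb9f stands highest at each length, with 85.0%, 78.7% and 52.3%, and Serpinb5 is at 0.

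On knock-down, the copies in the middle of the chromosome 13 row stood far above the scrambled control. Serpinb9f had 165, 183 and 167 counts (4.58, 4.40 and 4.71 CPM) in shDnmt3a libraries, against 3, 4 and 3 counts (0.0861, 0.105 and 0.0975 CPM) in shScr libraries. Serpinb9g had 119, 103 and 105 counts (3.30, 2.48 and 2.96 CPM) in shDnmt3a libraries, against 2, 4 and 2 counts (0.0574, 0.105 and 0.0650 CPM) in shScr libraries. Both were almost silent in the shScr cells, and no shScr library came near a shDnmt3a library. Summed over libraries, the ratio was 47.2 for Serpinb9f (exact Poisson 95% interval 25.4 to 99.0) and 37.4 for Serpinb9g (18.8 to 87.5), intervals that cover counting error only. Fitted log2 fold changes were 5.52 and 5.18. All 10 genes passed the filter on low counts, but Serpinb9e, Serpinb9f, Serpinb9g and Serpinb6b had fewer than 10 counts in each shScr library and passed only through their shDnmt3a libraries. Serpinb5, with 14, 10 and 10 counts in shScr libraries, also needed its shDnmt3a libraries to pass.

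Serpinb9e and Serpinb9c followed in size. Serpinb9e had 87, 138 and 115 counts (2.41, 3.32 and 3.24 CPM) in shDnmt3a libraries, against 9, 7 and 5 counts (0.258, 0.184 and 0.162 CPM) in shScr libraries. Serpinb9c, which lies on the opposite strand to its neighbours, had 331, 353 and 334 counts (9.18, 8.49 and 9.41 CPM) in shDnmt3a libraries, against 36, 31 and 32 counts (1.03, 0.816 and 1.04 CPM) in shScr libraries. The fitted log2 fold changes were 3.87 for Serpinb9e and 3.24 for Serpinb9c. As counted, Serpinb9c was the most abundant of these 4 copies also per kilobase of transcript, at 4.62 ± 0.24 CPM per kilobase in shDnmt3a libraries and 0.493 ± 0.065 in shScr libraries (SD, n = 3 each). The handling of shared reads could alter this ranking, since 78.7% of the 50-base windows of Serpinb9f occurred elsewhere, against 22.1% for Serpinb9c. Together, Serpinb9c, Serpinb9e, Serpinb9f and Serpinb9g made up 10.8% ± 0.43 of all clade B serpin CPM in shDnmt3a libraries and 0.909% ± 0.038 in shScr libraries (SD, n = 3 each).

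Serpinb6b, a mouse copy of Serpinb6 nearer the start of the row, moved in the same range. It had 58, 90 and 59 counts (1.6, 2.2 and 1.7 CPM) in shDnmt3a libraries, against 4, 7 and 9 counts (0.115, 0.184 and 0.292 CPM) in shScr libraries, a log2 fold change of 3.22. Its coding sequence was 66.2% to 67.6% identical to those of Serpinb9c, Serpinb9e, Serpinb9f and Serpinb9g, and the 2.56% of its 50-base windows that occurred elsewhere were shared with Serpinb6a and Serpinb6c, not with any Serpinb9 copy.

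Serpinb9b, which in the mouse inhibits granzyme M, had 188, 210 and 204 counts (5.22, 5.05 and 5.75 CPM) in shDnmt3a libraries, against 78, 76 and 62 counts (2.24, 2.00 and 2.01 CPM) in shScr libraries, a log2 fold change of 1.36. Serpinb5, known as maspin and best studied in epithelium, had 27, 31 and 29 counts (0.749, 0.746 and 0.817 CPM) in shDnmt3a libraries, against 14, 10 and 10 counts (0.402, 0.263 and 0.325 CPM) in shScr libraries, a log2 fold change of 1.23. These 2 genes differed by a little over 1 log2 unit, well short of the middle copies.

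The 2 most abundant genes, Serpinb9 and Serpinb8, differed little. Serpinb9 had 3865, 4690 and 4069 counts (107, 113 and 115 CPM) in shDnmt3a libraries, against 3727, 3636 and 3115 counts (107, 95.7 and 101 CPM) in shScr libraries, a log2 fold change of 0.15. The lowest shDnmt3a library lay only just above the highest shScr library, and the call was lost without shScr replicate 2 (log2 fold change 0.10). Serpinb8, whose human counterpart inhibits furin, had 967, 1177 and 1026 counts (26.8, 28.3 and 28.9 CPM) in shDnmt3a libraries, against 1160, 1143 and 978 counts (33.3, 30.1 and 31.8 CPM) in shScr libraries. Its log2 fold change was -0.17, and it was the only one of the 10 called lower, a call that was lost without shScr replicate 1 (-0.14) or without shDnmt3a replicate 1 (-0.14).

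Serpinb6a, which inhibits cathepsin G, was the only gene not called. It had 145, 181 and 158 counts (4.02, 4.35 and 4.45 CPM) in shDnmt3a libraries, against 177, 177 and 143 counts (5.08, 4.66 and 4.65 CPM) in shScr libraries, a log2 fold change of -0.16. Serpinb6a has another feature in the table, with 59 to 77 counts in shDnmt3a libraries and 49 to 94 in shScr libraries. Its exons overlap those of Nqo2 and Ripk1 on the other strand by 762 and 241 bases in the annotation, and the library kit does not mark strand, so reads there cannot be assigned to one gene.

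Counted at an adjusted p threshold of 0.05 in the edgeR quasi-likelihood fit, 8 of the 10 were higher and 1 was lower in shDnmt3a libraries. Of all 14115 features tested, 23.3% were called higher and 22.5% lower. Since this contrast chose the genes, nothing is read from that count. The median log2 fold change of the 10 was 2.29, against 0.00 over all features.

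**Figure D3:**
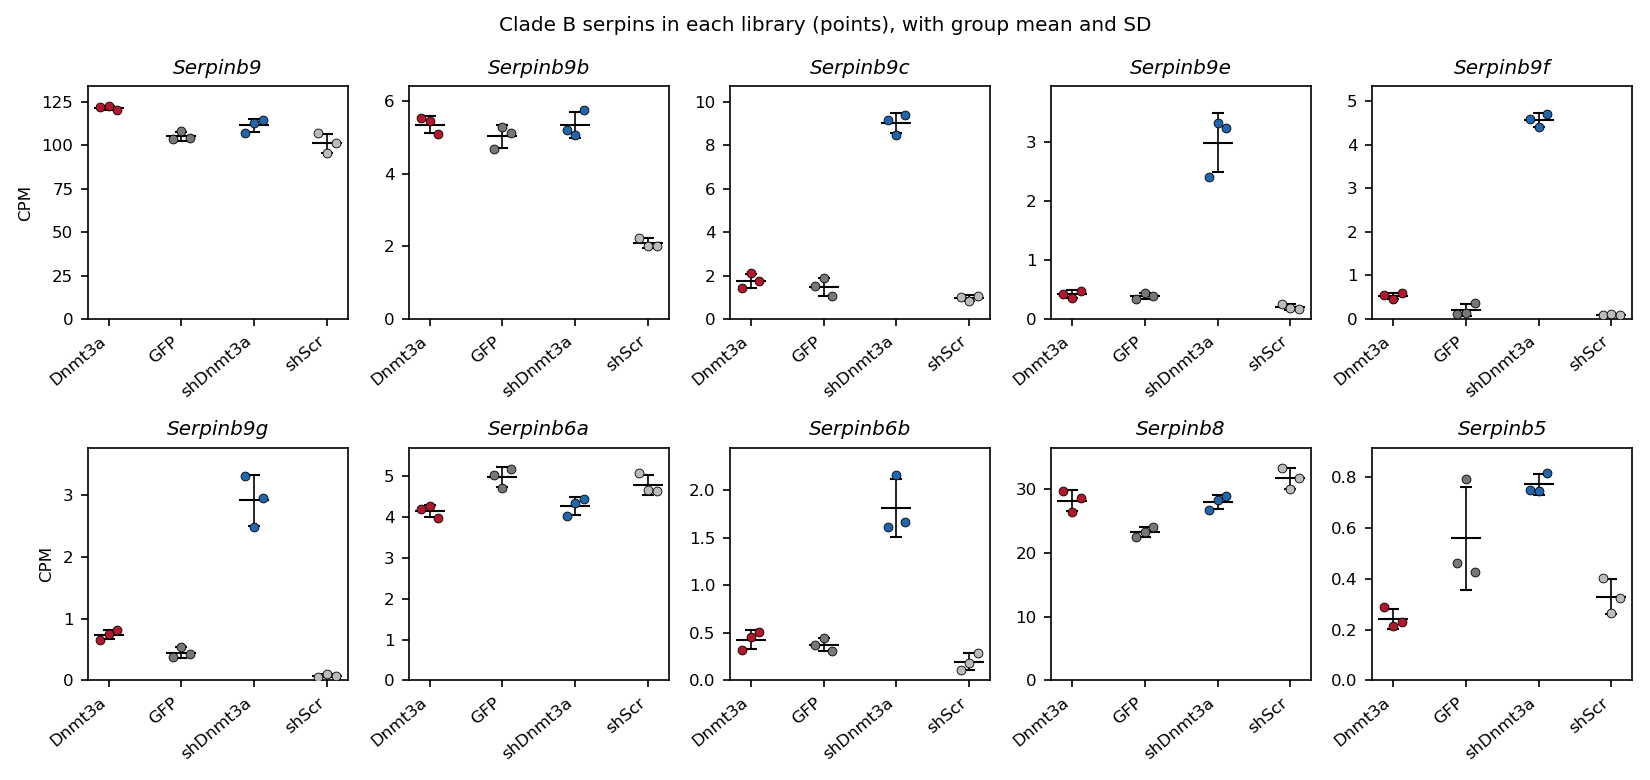
CPM (y axis, from 0, a scale for each gene) of the 10 serpins in the 4 groups, with a point for each library and a bar for the group mean with its SD (n = 3). The shDnmt3a points of Serpinb9c, Serpinb9e, Serpinb9f, Serpinb9g and Serpinb6b stand far above all others, while Serpinb9, Serpinb9b and Serpinb8 do not show this pattern.

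On overexpression, the log2 fold changes of these genes ran from -1.18 to 1.44. The genes were chosen by the knock-down, so the sizes of the differences in the comparisons are not set against each other. Serpinb9 had 4257, 3448 and 4740 counts (122, 123 and 120 CPM) in Dnmt3a libraries, against 4956, 4377 and 3670 counts (104, 108 and 104 CPM) in GFP libraries. All 3 Dnmt3a libraries were above all GFP libraries, and it rose by a log2 fold change of 0.21 ± 0.039 (SE; edgeR adjusted p = 9.44e-05). Serpinb8 had 1034, 742 and 1125 counts (29.7, 26.4 and 28.6 CPM) in Dnmt3a libraries, against 1080, 940 and 849 counts (22.6, 23.2 and 24.1 CPM) in GFP libraries. It rose by 0.28 ± 0.059 on the log2 scale (SE; edgeR adjusted p = 0.000421), again in 3 of 3 libraries. Both genes kept their calls under every alternative processing tried for this comparison. Of 8 adipocyte markers, 7 were called higher and 0 lower in Dnmt3a against GFP libraries, where 14.3% of all features were called higher and 12.9% lower. The markers had a median log2 fold change of 0.22, and summed to 13063 to 13478 CPM in Dnmt3a libraries and 10394 to 11142 CPM in GFP libraries. Their part in the serpin values was not tested.

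Serpinb9f and Serpinb5 were known from earlier results in this comparison too, so their values are a description. Serpinb9f had 19, 13 and 23 counts (0.546, 0.462 and 0.585 CPM) in Dnmt3a libraries, against 5, 6 and 13 counts (0.104, 0.148 and 0.369 CPM) in GFP libraries. Its log2 fold change was 1.44 ± 0.39 (SE), and without GFP replicate 1 it was 1.08 and no longer called. DESeq2 and the filter of CPM 1 in 3 libraries gave Serpinb9f no adjusted p, so it was not called there either. Serpinb5 had 10, 6 and 9 counts (0.288, 0.213 and 0.229 CPM) in Dnmt3a libraries, against 22, 32 and 15 counts (0.460, 0.791 and 0.426 CPM) in GFP libraries. Its log2 fold change was -1.18 ± 0.37 (SE), and the call was lost without GFP replicate 2 (-0.86), without Dnmt3a replicate 2 (-1.11) or without Dnmt3a replicate 3 (-1.13). Serpinb5, with at most 32 counts in any library, was called lower in Dnmt3a against GFP libraries and higher in shDnmt3a against shScr libraries. In shDnmt3a against GFP libraries it was not called, at 0.46, nor in shScr against GFP libraries, at -0.76. Both its calls were known beforehand, so nothing is read from their opposite directions.

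The other 6 genes were not called on overexpression. Serpinb9g came nearest, with 23, 21 and 32 counts (0.661, 0.746 and 0.813 CPM) in Dnmt3a libraries, against 18, 22 and 15 counts (0.376, 0.544 and 0.426 CPM) in GFP libraries. Its log2 fold change was 0.73 (95% interval 0.14 to 1.32, edgeR adjusted p = 0.0592), and 1 fit of all 12 libraries called it (edgeR adjusted p = 0.0430). Serpinb6a had 146, 120 and 157 counts (4.20, 4.26 and 3.99 CPM) in Dnmt3a libraries, against 241, 191 and 183 counts (5.04, 4.72 and 5.19 CPM) in GFP libraries, a log2 fold change of -0.27 (edgeR adjusted p = 0.0807). Its libraries did not overlap between the groups although the adjusted p missed the threshold.

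The remaining genes had overlapping libraries. Serpinb9c had 50, 59 and 69 counts (1.44, 2.10 and 1.75 CPM) in Dnmt3a libraries, against 72, 76 and 37 counts (1.50, 1.88 and 1.05 CPM) in GFP libraries. Serpinb9e had 15, 10 and 19 counts (0.431, 0.355 and 0.483 CPM) in Dnmt3a libraries, against 16, 18 and 14 counts (0.334, 0.445 and 0.397 CPM) in GFP libraries. At these counts only large differences could be shown, since the 95% interval of the log2 fold change was -0.19 to 0.64 for Serpinb9c and -0.54 to 0.81 for Serpinb9e. Serpinb6b had 11, 13 and 20 counts (0.316, 0.462 and 0.508 CPM) in Dnmt3a libraries, against 18, 18 and 11 counts (0.376, 0.445 and 0.312 CPM) in GFP libraries. Serpinb9b had 192, 153 and 200 counts (5.52, 5.44 and 5.08 CPM) in Dnmt3a libraries, against 224, 214 and 180 counts (4.68, 5.29 and 5.11 CPM) in GFP libraries. The interval was -0.51 to 0.86 for Serpinb6b and -0.13 to 0.31 for Serpinb9b.

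In all, 3 of the 10 were called higher and 1 lower on overexpression, where 14.3% of 14168 features were called higher and 12.9% lower. These counts include Serpinb9f and Serpinb5, which are a description only and passed the filter on low counts through the group in which they were high, so nothing is read from them. The median log2 fold change of the 10 was 0.19, against -0.01 over all features tested.

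**Figure D4:**
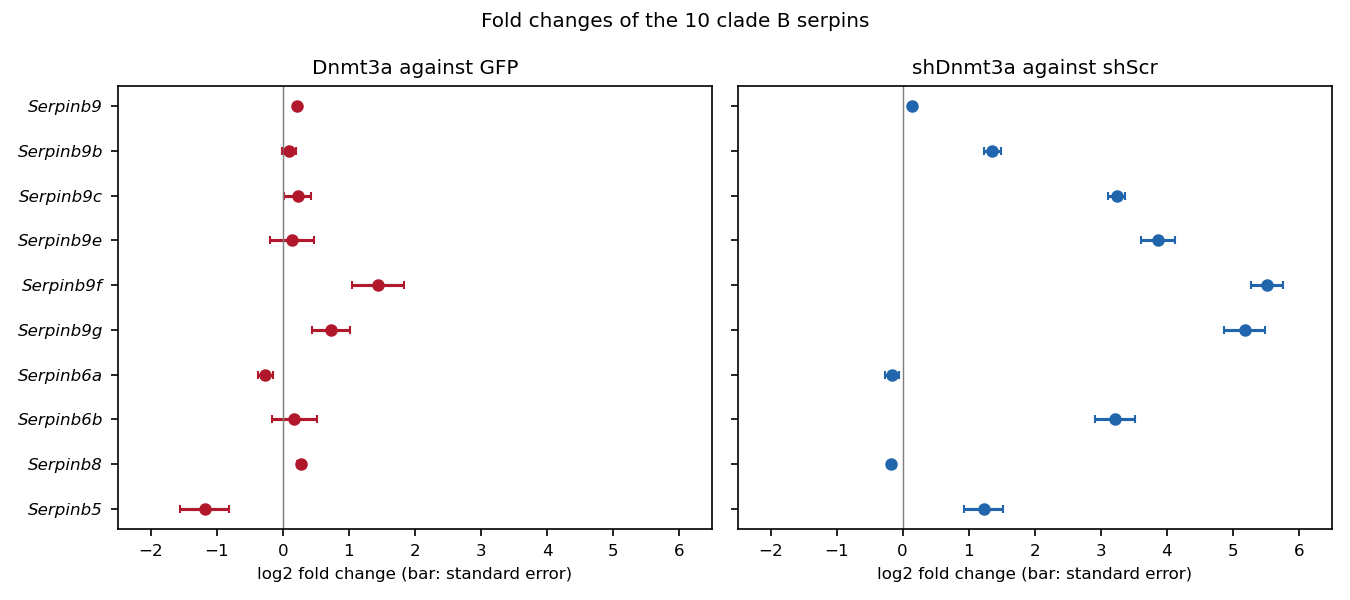
Log2 fold change (x axis) of each of the 10 serpins with its standard error, for Dnmt3a against GFP on the left and shDnmt3a against shScr on the right, on the same scale. Values on the left run between -1.18 and 1.44, and on the right Serpinb9f reaches 5.52.

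The scrambled control was itself lower than the GFP control for several of these genes. In 1 fit of all 12 libraries, Serpinb9g differed by -2.48 on the log2 scale between shScr and GFP libraries, Serpinb9b by -1.26, Serpinb6b by -0.96, Serpinb9e by -0.93 and Serpinb9c by -0.64. These 5 were called lower and Serpinb8, at 0.45, was called higher, where 22.8% of 14491 features were called lower and 23.7% higher. Set against GFP instead of shScr, shDnmt3a libraries were higher by 4.52 for Serpinb9f, 2.93 for Serpinb9e, 2.69 for Serpinb9g, 2.59 for Serpinb9c, 2.25 for Serpinb6b and 0.27 for Serpinb8. These 6 were called higher and 0 were called lower, where 23.6% of features were called higher and 22.8% lower. Serpinb9b was not among them, with 5.34 ± 0.36 CPM in shDnmt3a libraries and 5.03 ± 0.31 CPM in GFP libraries (SD, n = 3 each). The vectors differ between the 2 controls, so vector and insert cannot be told apart in these contrasts, which share their libraries with those above and are a description.

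Ordered by mean CPM, Serpinb9c, Serpinb9e, Serpinb9f, Serpinb9g and Serpinb6b had the same order of groups, shDnmt3a highest, then Dnmt3a, GFP and shScr. For all 5, the shDnmt3a libraries lay above every other library, and the Dnmt3a and GFP libraries were apart only for Serpinb9f and Serpinb9g. The genes were chosen by their knock-down values, and the shares of all features with this order or with libraries apart were not computed. Nothing is therefore read from the shared order or from which libraries were apart. Serpinb9 and Serpinb9b were highest in Dnmt3a cells, ahead of shDnmt3a, GFP and shScr, with the Dnmt3a and shDnmt3a libraries apart for Serpinb9 and overlapping for Serpinb9b. Serpinb8 was highest in shScr cells and lowest in GFP cells. Serpinb6a was highest in GFP cells, followed by shScr, shDnmt3a and Dnmt3a cells. Serpinb5 was highest in shDnmt3a cells, followed by GFP, shScr and Dnmt3a cells, with the libraries of the first pair and of the last pair overlapping.

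Per kilobase, Serpinb9 was by far the most abundant of the 10 in every group, at 35.9 ± 0.34 CPM per kilobase in Dnmt3a libraries, 31.0 ± 0.74 in GFP libraries, 32.8 ± 1.1 in shDnmt3a libraries and 29.8 ± 1.6 in shScr libraries (SD, n = 3 each). Serpinb8 came next, at 8.58 ± 0.52 CPM per kilobase in Dnmt3a libraries, 7.08 ± 0.23 in GFP libraries, 8.52 ± 0.33 in shDnmt3a libraries and 9.64 ± 0.48 in shScr libraries. The granzyme B inhibitor was thus the main clade B transcript in these fat cells. Serpinb9 made up 61.8% ± 0.53 of all clade B CPM in shDnmt3a libraries and 68.9% ± 0.47 in shScr libraries. The sum of the family was 181 ± 6.3 CPM in shDnmt3a libraries and 147 ± 7.2 CPM in shScr libraries, and 171 ± 1.1 CPM in Dnmt3a libraries and 150 ± 3.6 CPM in GFP libraries (SD, n = 3 each). In bulk RNA, a change in the number of expressing cells and in RNA per cell cannot be told apart.

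On chromosome 13, the row of clade B genes spans 1161 kb (NCBIM37, the build of the counts) and 8 of the 10 genes lie in it. Its order is Serpinb6b (33057182 to 33070936), Serpinb9 (33095119 to 33109826), Serpinb9b (33119285 to 33133753), Serpinb9c (33241144 to 33251611), Serpinb9e (33341481 to 33352715), Serpinb9f (33415946 to 33427239), Serpinb9g (33576659 to 33587867) and Serpinb6a (34009787 to 34094663). The large differences were not in one unbroken block. Serpinb6b, with 3.22, lies beside Serpinb9, with 0.15, and Serpinb9d (log2 fold change 0.72, not called) lies between Serpinb9c and Serpinb9e. Serpinb9d had 18, 21 and 15 counts in shDnmt3a libraries, against 7, 14 and 9 counts in shScr libraries. Serpinb5 (108757750 to 108779925) and Serpinb8 (109486583 to 109505486) lie at the ends of the 748 kb row on chromosome 1, and differed in opposite directions on knock-down.

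**Figure D5:**
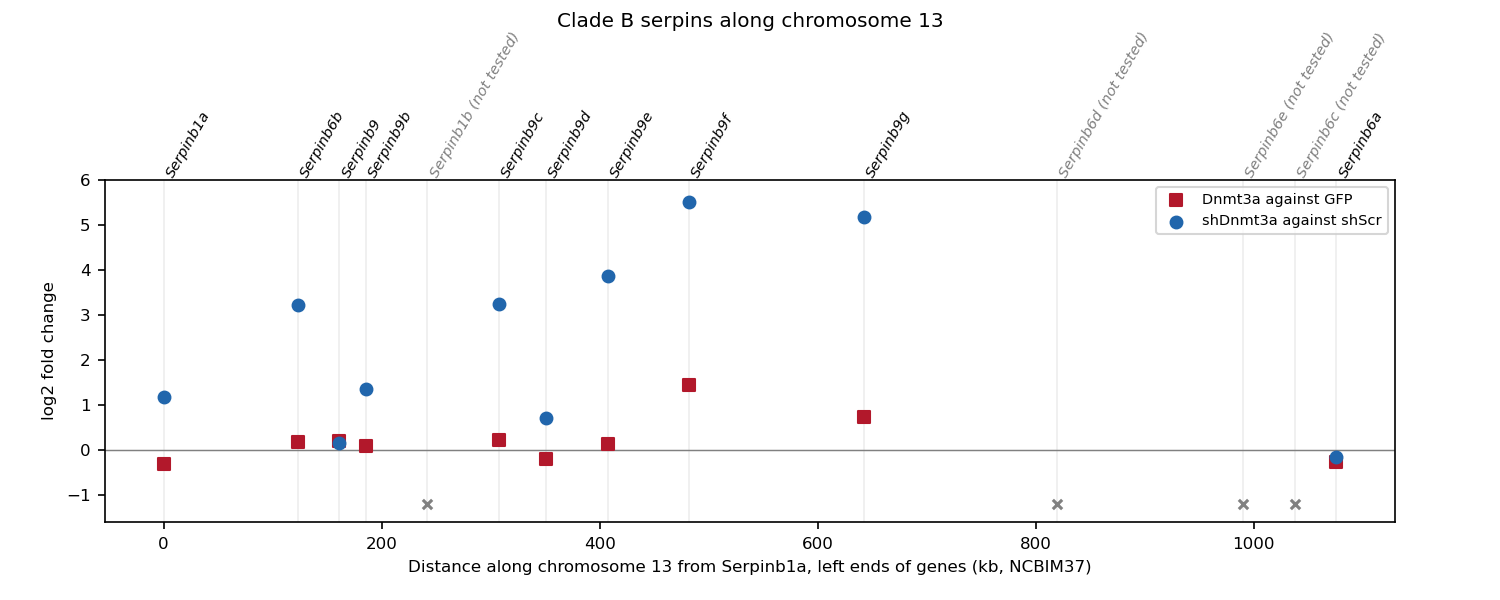
Log2 fold change (y axis) of clade B serpins by distance along chromosome 13 (x axis, kb from Serpinb1a), as squares for Dnmt3a against GFP and circles for shDnmt3a against shScr. Crosses mark genes with too few counts to test, and circles above 3 stand at Serpinb6b, Serpinb9c, Serpinb9e, Serpinb9f and Serpinb9g, with Serpinb9 and Serpinb9b between the first and the second.

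Genes of other families within 500 kb of the row did not show differences of that size. Of 9 tested beside or within the chromosome 13 row, 1 was called higher on knock-down (Ripk1, 0.24, a kinase of cell death signalling) and 3 lower (Tubb2b, -0.89, Psmg4, -0.30, and Nqo2, -0.22), with a median of -0.10. On overexpression, 1 was called higher (Bphl, 0.24) and 3 lower (Tubb2b, -1.14, Tubb2a, -0.28, and Ripk1, -0.15). Beside the chromosome 1 row, 4 genes were tested, of which Vps4b (0.15) and Phlpp1 (0.21) were called higher and Kdsr (-0.44) and Bcl2 (-0.19) lower on knock-down. The shares over all features were 23.3% higher and 22.5% lower on knock-down, and 14.3% and 12.9% on overexpression.

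Of the other 16 clade B serpins, 13 had too few counts to test, at a mean of at most 7.42 counts in a library, and 3 of these had no count in any library. The 13 included Serpinb2, the plasminogen activator inhibitor of macrophages, with 3 to 11 counts in GFP libraries, and Serpinb3a to Serpinb3d. Those with no count were Serpinb12, Serpinb3c and Serpinb3d. Serpinb1a, an inhibitor of neutrophil elastase at the start of the chromosome 13 row, had 145, 197 and 215 counts in shDnmt3a libraries, against 72, 86 and 68 counts in shScr libraries, a log2 fold change of 1.18 ± 0.15 (SE; edgeR adjusted p = 2.84e-06). It had 113, 107 and 128 counts in Dnmt3a libraries, against 195, 164 and 165 counts in GFP libraries, a log2 fold change of -0.32 that missed the threshold (edgeR adjusted p = 0.0580). It was called lower in shScr against GFP libraries (-0.96), and shDnmt3a against GFP was 0.21, not called. Another Serpinb1a feature had 39 to 49 counts in shDnmt3a libraries and 6 to 12 in shScr libraries. Its log2 fold changes were 2.21 on knock-down and 1.92 in shDnmt3a against GFP, both called, and 0.42 on overexpression, not called. Serpinb13 had log2 fold changes of 0.08 on knock-down and -0.08 on overexpression, neither called.

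Serpins of the other clades were mixed. For comparison, 23.3% of all features were called higher and 22.5% lower on knock-down, and 14.3% and 12.9% on overexpression. On knock-down, 4 of 10 tested were called higher, among them Serpinh1 (0.41) and Serpina3n (0.66), and 1 lower, Serpinf1 (-0.51). On overexpression, 2 of 12 were called higher (Serpina3n, 0.42, and Serpinf1, 0.30) and 3 lower, among them Serpina3g (-1.30). Of 11 tested proteases of the kinds that serpins act on, 3 were called higher on knock-down, among them Furin (0.49) and Casp8 (0.29), and 3 lower, among them Ctsl (-0.52) and Ctsk (-0.44). On overexpression, Ctsl (0.28) was called higher and Casp4 (-0.80), Furin (-0.24) and Plau (-0.62) lower.

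Markers of leukocytes, trophoblast and epithelium were low beside those of adipocytes. Of 12 macrophage and leukocyte markers, Emr1 and Laptm5 had no count in any library, and the list summed to 29.6 to 31.1 CPM in Dnmt3a libraries, 26.5 to 27.6 CPM in GFP libraries, 37.6 to 38.4 CPM in shDnmt3a libraries and 32.9 to 35.1 CPM in shScr libraries. On knock-down, 4 of the 9 tested were called higher and 2 lower, where 23.3% of all features were called higher and 22.5% lower. The called markers included Cd53 (1.94) and Trem2 (1.81), higher, and Mpeg1 (-1.64), lower. The part of these markers in the serpin values was not tested. The 6 markers of T and NK cells summed to at most 1.41 CPM, with Ncr1 and Gzma at 0, and the 6 trophoblast markers to at most 0.606 CPM, with none tested. Of 6 epithelial markers, Epcam was at 0 and the list summed to 2.81 to 3.86 CPM in shDnmt3a libraries and 1.88 to 2.21 CPM in shScr libraries, with Krt14 (1.52) and Krt18 (0.77) called higher. Preadipocyte markers summed to 379 to 385 CPM in shDnmt3a libraries and 445 to 450 CPM in shScr libraries.

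Across the 12 libraries, log2 CPM of Serpinb9c, Serpinb9e, Serpinb9f, Serpinb9g and Serpinb6b correlated with each other at Pearson's r of 0.91 to 0.97, a description over 4 groups of libraries in which the shDnmt3a libraries stand apart. Serpinb9 correlated with Serpinb9f at only 0.44. Among 12999 features with a mean of at least 20 counts, those with the pattern most like Serpinb9f were Tmem97 (0.98), Pkm2 (0.98) and Pfkp (0.98). Those most like Serpinb6b were Tec (0.98), Lman1l (0.97) and Btbd19 (0.97). Those most like Serpinb9 were Cmpk1 (0.96), Ube3c (0.95) and Derl1 (0.94), and those most like Serpinb5 were AK202301 (0.95), Kbtbd2 (0.94) and Fam46a (0.94).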

How the data were processed

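RNA from 12 samples of transduced 3T3-L1 adipocytes was sequenced after ribosomal RNA removal with a kit that does not mark strand. The deposited values are counts of reads per transcript feature. According to the submitters' notes and the study's methods, the authors aligned reads with TopHat2 2.0.14 and counted them with featureCounts 1.4.6 on an mm9 annotation reduced to few overlapping transcripts. Handling of multiply mapped reads and read length are not given in the sources used here. Of 27473 features, 7094 had no count.

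Features passing filterByExpr (minimum count 10) were fitted with edgeR 4.0.16 (R 4.3.3, TMM scaling, quasi-likelihood test, Benjamini-Hochberg adjustment over all features tested, threshold 0.05), with the 6 libraries of a comparison. Contrasts with GFP that involve hairpin libraries used 1 fit of all 12. CPM used TMM-scaled library sizes. Levels per kilobase used the length given beside the deposited counts in place of the annotation's exon union. Correlations used log2 CPM with a prior count of 2. The feature with the highest mean count carried a symbol with several features. All members were named, and from other lists at most 4 called genes per comparison, in order of p, of which 1 gene is not reported here. For Serpinb9f, Serpinb9, Serpinb6b and Serpinb5, the 3 most correlated features were named. Members, lists and tests were chosen with earlier results of these data known. The fit was tested on simulated data. Replicates of a group differed by more than sampling noise (chi-square per degree of freedom 2.44 to 10.1). Sequence comparisons used Biopython 1.88 with GENCODE transcripts on NCBIM37. Alternatives tried were RLE scaling, DESeq2 1.42.0, no filter, a filter of CPM 1 in 3 libraries, counts summed per symbol, a replicate block, 1 fit of all libraries, each library left out, other lengths and other window sizes.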

Additional observations from a re-analysis of the deposited data

How the results depend on the processing

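Of 607 fold changes of the 10 genes recomputed under alternative settings, 576 kept their direction and their side of the threshold and 0 reversed. Genes without an adjusted p under a setting are left out of the 607. On overexpression these included Serpinb9f and Serpinb5, with DESeq2 and with the filter of CPM 1 in 3 libraries. The count called higher on overexpression was 3, and 2 under each of these settings. The count of members called lower on overexpression was 1 (Serpinb5) and became 0 with DESeq2 and 0 with the filter of CPM 1 in 3 libraries, and lay between 0 and 1 when each library was left out. The count called lower on knock-down was 1 (Serpinb8) and lay between 0 and 1 when each library was left out, at 0 without shScr replicate 1 or shDnmt3a replicate 1. The count called lower in shScr against GFP was 5, became 3 with DESeq2 and lay between 2 and 6 when each library was left out, at 2 without GFP replicate 2 or shScr replicate 2. The count called lower in shDnmt3a against GFP was 0 and became 1 (Serpinb6a, -0.26) with counts summed per symbol. The cause was not tested. Replicate numbers did not pair the libraries, since same-numbered libraries correlated between -0.06 and 0.00 in their deviations. With the replicate block, 2023 features were called higher and 1830 lower on overexpression, and 3092 and 2931 on knock-down, with every member on the same side of the threshold. The deposited length replaced the exon union as the main length after the data had been seen, and the exon union was kept as an added alternative. The counts of Serpinb9e, Serpinb9f, Serpinb9g and Serpinb6b outside the shDnmt3a libraries limit what the overexpression comparison can show.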
